A study of Mus musculus with 18 samples.

Results

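Gene expression in mouse liver was compared between zeitgeber time (ZT) 9, in the last part of the light phase, and ZT13, just after lights off. The livers were assigned to a time of day by their labels alone. They were 6 of the 18 livers of the series, 3 at ZT9 and 3 at ZT13, 4 h apart. The comparison, the gene lists and the marker lists used below were chosen with earlier results of these data known. All mice were labelled wild type (WT), were male and 8 to 9 weeks old, and lived in a cycle of 12 h light and 12 h dark. The labels give no other treatment. Whole livers were snap-frozen and their polyadenylated RNA was sequenced. Each liver came from its own animal, and the livers sequenced at each time were those with the best RNA out of more mice. Every animal at ZT9 was in the light and every animal at ZT13 in the dark, so the hour of the day, the lighting and what the animals did in either phase cannot be told apart. The order in which the livers were harvested or sequenced is not given in the sources used here.

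The liver clock is a feedback loop of transcription. ARNTL and CLOCK activate the Per, Cry and Nr1d genes, PER and CRY proteins then repress that activation, and NR1D proteins compete with ROR proteins on the promoters of Arntl and other genes. Mice feed mostly in the dark, body temperature is higher in the active phase, and the liver takes up glucose, stores glycogen and makes lipid after a meal, while it releases glucose during a fast. Heat shock factors, the glucocorticoid receptor and insulin signalling are among the systemic inputs known to reach rhythmic liver genes.

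Values are estimated reads per 1000000, as the authors scaled them by effective library sizes of their own, with an offset of 0.5 reads. The 6 livers held between 10268168 and 15457407 estimated reads, within the range of 10268168 to 23242842 over all 18. Livers of 1 time had a Pearson correlation of 0.9857 to 0.9894 over 6 pairs, and livers of the 2 times one of 0.9746 to 0.9849 over 9 pairs, both across genes on the log2 scale, and no 2 livers held identical values. The column totals of the table were 962777 to 991635 at ZT9 and 999548 to 1058369 at ZT13. The hepatocyte markers listed for the check of the tissue (7 of 8 were measured) summed to between 85150 and 86610 at ZT9 and between 96180 and 105500 at ZT13. That sum includes albumin, whose share is given below, and the median log2 change of the markers was 0.04. Hnf4a, a transcription factor of hepatocytes, was the 1 member called, with a log2 change of 0.35 ± 0.10 (SE). None of the 8 markers each of Kupffer cells, sinusoidal endothelium and stellate cells passed the test, and neither did any measured marker of cholangiocytes, lymphocytes, erythroid cells, exocrine pancreas or adipocytes. The 5 measured lymphocyte markers summed to between 3.98 and 4.97 at ZT9 and between 1.59 and 3.74 at ZT13, lower without overlap (median log2 change -0.25), and their part in the results below was not tested. The sums of the other types of cell besides hepatocytes overlapped, as for Kupffer cell markers with 245.8 to 302.3 at ZT9 and 230.1 to 301.4 at ZT13. Of 3 measured neutrophil markers Ly6g alone was called, from 0.389, 0.479 and 0.224 at ZT9 to 1.14, 0.996 and 0.695 at ZT13. In whole liver, fewer cells of a type and less RNA per cell cannot be told apart. The share of the total in mitochondrially encoded genes was 7.72 to 8.39% at ZT9 and 7.2 to 8.95% at ZT13, and that of albumin was 5.14 to 5.55% and 6.07 to 6.92%.

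Of 14449 genes tested, 1605 (11.1%) changed between ZT9 and ZT13 at an adjusted p below 0.05. 824 rose (5.7% of the genes tested) and 781 fell (5.41%). The test was limma's moderated test with a trend on log2(value + 1), fitted to all 18 livers so that the 6 times share 1 estimate of the spread, with Benjamini–Hochberg adjustment over all genes. A log2 change below is the ZT13 mean minus the ZT9 mean on that scale, which understates the change of genes near 0. Most changes were below 2-fold. The median log2 change in size was 0.53 for genes that rose and 0.55 for genes that fell, that is 1.44-fold and 1.47-fold, and 100 genes rose and 70 fell by at least 2-fold. The 3 livers of ZT9 and the 3 of ZT13 did not overlap for 1551 of the 1605 genes, against 27.9% of all genes tested. Overlap was read from the same livers as the call, so it is no separate evidence for the calls. Among the genes that rose, the highest of the 6 time means was at ZT13 for 53.8% and at ZT17 for 31.4%, and among the genes that fell the lowest was at ZT13 for 50.7% and at ZT17 for 38.7%. For all genes tested the highest mean was at ZT13 in 18.8% and the lowest in 18.4%. The genes that rose or fell were picked by their ZT9 and ZT13 values, so their shares are not independent of that choice. When each liver was scaled to a total of 1000000, 1569 genes were called, of which 562 rose and 1007 fell, and the share that rose went from 51.3% to 35.8%. The median log2 change over all genes was -0.003, and -0.048 after that scaling. With 1 liver left out at a time the count fell furthest without the first ZT13 liver, to 905, and without the second ZT9 liver, to 935.

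**Figure D1:**
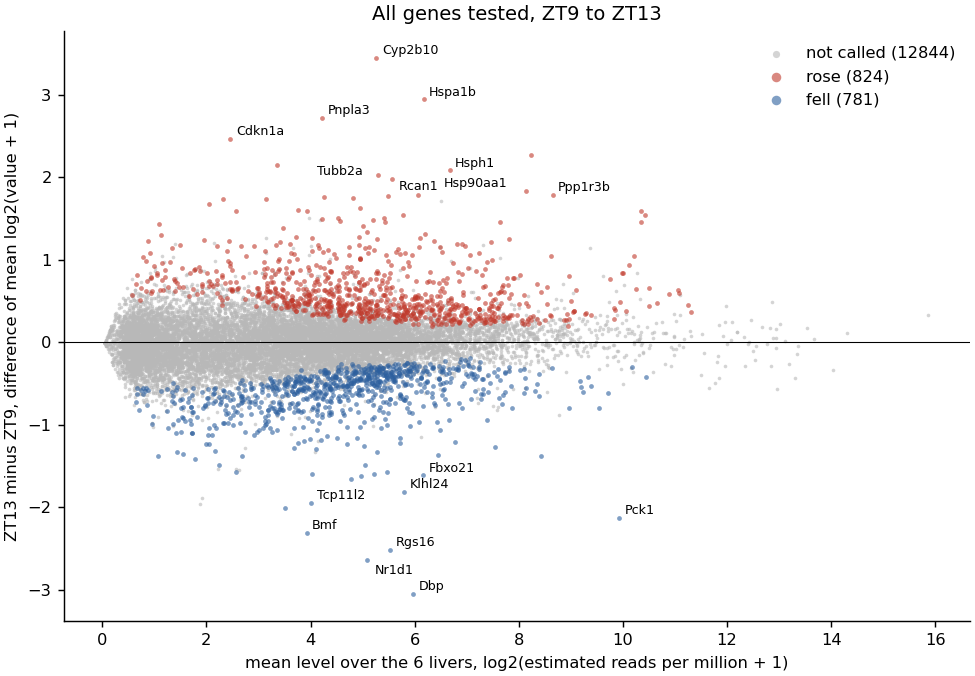
The difference of the mean log2(value + 1) between ZT13 and ZT9 (vertical axis) is plotted against the mean level over the 6 livers (horizontal axis, log2 of estimated reads per 1000000 plus 1), with 1 point per gene. The 824 genes that rose are red and the 781 that fell blue, and Cyp2b10 and Dbp lie at the upper and the lower end.

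The genes of the core clock moved in both directions. Of 19 measured members of the list of clock activators and their targets, 6 rose (among them Arntl, Clock, Per2, Cry1 and Nfil3) and 7 fell (Dbp, Nr1d1, Nr1d2, Bhlhe41, Per3, Tef, Rora), 68.4% of the list against 11.1% of all genes. The median log2 change of the list was -0.30, beside -0.003 over all genes. Between 12 and 14 members were called under the alternatives tried.

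Short windows of promoters are given here for members that carry the hexamer CACGTG, the E-box to which ARNTL and CLOCK bind, or the sequence TTANGTAA, the D-box to which DBP, TEF, HLF and NFIL3 bind. The promoters are the 250 bases before each RefSeq start on GRCm38.p6, searched on both strands, and 16 of the 19 members have 1. CACGTG was in a promoter of 5 of these 16 genes, against 6.02% of all 32851 promoters, 9.69% of the tested genes with a promoter, 12.1% of those that rose and 13.4% of those that fell. TTANGTAA was in the promoter of 1 of the 16, Per3, against 2.06% of all promoters. Counted per gene, it was in 1.79% of the tested genes with a promoter, 1.72% of those that rose and 2.98% of those that fell. The windows of 60 bases are chr10:85185082-85185141 (minus strand) for Cry1, chr3:95882240-95882299 (minus strand) for Ciart, chr11:69098756-69098815 (plus strand) for Per1 and chr4:151044790-151044849 (minus strand) for Per3, each read 5′ to 3′ along its gene with the matching bases in capitals.
Cry1: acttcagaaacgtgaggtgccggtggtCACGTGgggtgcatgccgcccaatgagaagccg
Ciart: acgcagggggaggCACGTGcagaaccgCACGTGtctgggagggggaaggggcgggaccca
Per1: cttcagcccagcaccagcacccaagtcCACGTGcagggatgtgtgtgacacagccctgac
Per3: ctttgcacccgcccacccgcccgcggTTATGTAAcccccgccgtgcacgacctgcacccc
Of these 4 genes with a match, Cry1 rose, Per3 fell, and Per1 and Ciart were not called. Only exact matches were searched, and whether a match bears on a change was not tested. The E-box genes also included Tef and Bhlhe41, which both fell.

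Dbp (ENSMUSG00000059824, GRCm38 chromosome 7, 45705088 to 45710203), a PAR bZIP activator and direct target of the clock, had 106, 112 and 113 estimated reads per 1000000 in the ZT9 livers and 9.89, 12.2 and 16.1 in the ZT13 livers. All ZT9 livers were far above all ZT13 livers. The log2 change was -3.05 ± 0.18 (SE, adjusted p = 1.21e-08), the steepest fall of the genes named by the rule. Nr1d1 (ENSMUSG00000020889, chromosome 11, 98767932 to 98775333), which encodes the repressor REV-ERBα, had 43.9, 81.3 and 47.2 at ZT9 and 7.36, 6.09 and 11.7 at ZT13, again without overlap. Its log2 change was -2.63 ± 0.26 (adjusted p = 6.34e-06), and its highest mean of the day was at ZT5. Its paralog Nr1d2 went from 125 ± 13.1 to 48.5 ± 9.83 (mean ± SD, n = 3), a log2 change of -1.36 ± 0.15 (adjusted p = 1.28e-05). Tef, another PAR bZIP activator, fell by 0.60 ± 0.10 on the log2 scale, from 257 ± 13 to 169 ± 6.03. Hlf, the PAR bZIP member that completes the family, had 67.95 and 82.69 as means and was not called (adjusted p = 0.14).

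Arntl (ENSMUSG00000055116, chromosome 7, 113207465 to 113314126), which encodes the clock activator BMAL1, had 1.41, 0.978 and 1.55 at ZT9, its lowest time of the day, and 7.91, 5.78 and 6.38 at ZT13. The ZT13 livers were all above the ZT9 livers, with a log2 change of 1.73 ± 0.24 (adjusted p = 0.000181). Its partner Clock rose from 25 ± 2.22 to 43.3 ± 4.28 (log2 change 0.77 ± 0.10, adjusted p = 0.000131). Npas2, which can stand in for Clock, was near the lowest value in all 6 livers and gives no change that this depth could show. Nfil3, a repressor that competes with the PAR bZIP activators, had 11.3, 13.1 and 10.8 at ZT9 and 28.6, 26.6 and 24.7 at ZT13, so that it rose while Dbp and Tef fell. Its log2 change was 1.12 ± 0.13 (adjusted p = 2.2e-05). Rora, which encodes a ROR activator, fell by 0.51, from 80.25 to 55.85 as means.

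The period and cryptochrome genes, which encode the repressors of the loop, did not move together. Per2 had 43.9, 30.4 and 50.1 at ZT9 and 95.7, 113 and 99.1 at ZT13, where its mean was the highest of the day. It rose by 1.31 ± 0.23 (adjusted p = 0.00121). Per3 had 58.5, 50.5 and 61.1 at ZT9 and 27, 32.7 and 32.8 at ZT13, and fell (log2 change -0.86 ± 0.19, adjusted p = 0.00639). Per1 had overlapping livers, with 28.4, 24.4 and 31.3 at ZT9 and 24.9, 17.1 and 21 at ZT13, and was not called (adjusted p = 0.462). Cry1 (ENSMUSG00000020038) had 12.4, 6.85 and 7.73 at ZT9 and 27.8, 26.9 and 24.7 at ZT13, without overlap and with a log2 change of 1.496 ± 0.17 (adjusted p = 2.15e-05). Cry2, with means of 40.58 and 32.7, was not called (adjusted p = 0.106). Ciart, a further repressor of the loop, had 21.9, 14.8 and 18.4 at ZT9 and 9.14, 8.02 and 10.6 at ZT13, which do not overlap. Its adjusted p was 0.0608, and between 0.00898 and 0.195 over the alternatives, with a call in 4 of 21. One of these left out the third ZT5 liver, which enters the fit through the shared spread (adjusted p = 0.00898).

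**Figure D2:**
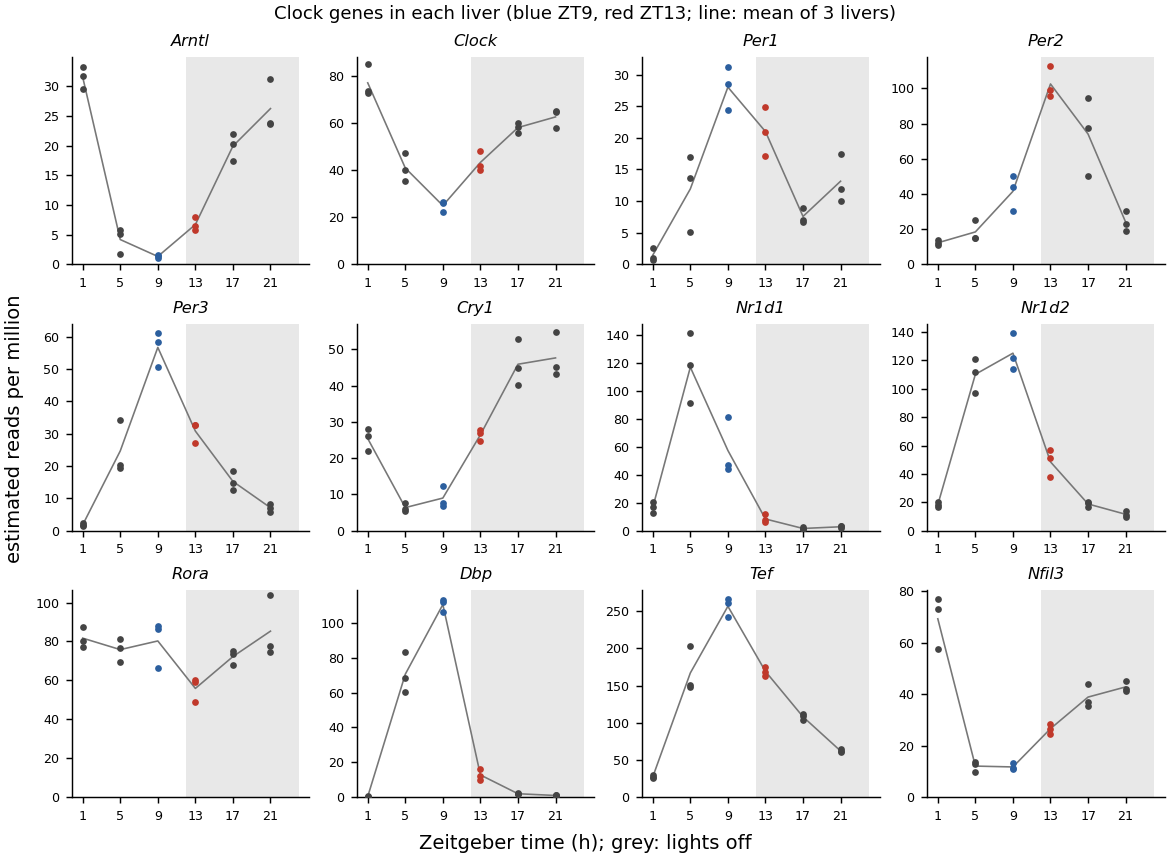
Estimated reads per 1000000 of 12 clock genes (vertical axes, from 0) in each of the 18 livers against zeitgeber time in hours, with ZT9 in blue, ZT13 in red, the dark phase in grey and a line through the means of 3 livers. Dbp, Nr1d1, Nr1d2, Per3, Tef and Rora drop between the blue and the red points, while Arntl, Clock, Per2, Cry1 and Nfil3 are higher at ZT13.

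Genes known as clock outputs in liver were a mixed group, of which 6 rose and 2 fell of 19 measured (42.1% called, median log2 change 0.41). Gpcpd1, an enzyme of glycerophosphocholine breakdown, had 179, 106 and 174 at ZT9 and 68, 56.8 and 68 at ZT13, all lower than at ZT9 (log2 change -1.20 ± 0.18, adjusted p = 0.000374). Upp2, a uridine phosphorylase, fell from a mean of 634.3 to 362.4. The flavin monooxygenase Fmo5 had 700, 758 and 828 at ZT9 and 1545, 1381 and 1447 at ZT13, a log2 change of 0.94 ± 0.09 (adjusted p = 6.24e-06). Elovl3, a fatty acid elongase, rose from 38.1 ± 8.65 to 83.6 ± 32.5, and Lonrf3, a RING finger protein, from 2.33 ± 0.34 to 6.14 ± 0.70. Insig2, which holds SREBP in the endoplasmic reticulum, rose from 66.2 to 107.8 as means. Usp2 and Wee1, both textbook clock targets, were not called, with adjusted p of 0.29 and 0.0604.

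Most chaperone genes known as targets of heat shock factor rose. Of 24 measured genes of this list, 20 rose and none fell, 83.3% of the list, and all 24 had a higher mean at ZT13. The median log2 change was 1.01, beside -0.003 over all genes, and between 18 and 21 members were called under the alternatives. Hspa4, Hspd1, Serpinh1 and Cryab were not called. The protein families of the list differ in their roles. HSP70 and HSP90 bind client proteins, DNAJ proteins bring clients to HSP70, HSPH1 and BAG3 exchange its nucleotide, and small heat shock proteins hold unfolded clients.

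Hspa1b (ENSMUSG00000090877, chromosome 17, 34956436 to 34959238), the inducible HSP70, had 15.8, 10 and 18.8 at ZT9 and 126, 189 and 68 at ZT13. The lowest ZT13 liver was above the highest ZT9 liver, and the log2 change was 2.94 ± 0.30 (adjusted p = 7.34e-06). Its near-identical copy Hspa1a had 0.0426, 1.13 and 2.11 at ZT9 and 6.97, 4.26 and 4.35 at ZT13. RSEM divides reads between such copies, so the level of either is uncertain. The constitutive HSP70 gene Hspa8 rose from 664.3 to 1927 as means (log2 change 1.59 ± 0.19, adjusted p = 3.47e-05). Hsph1 (ENSMUSG00000029657, chromosome 5) had 64.2, 24.5 and 31 at ZT9 and 149, 211 and 125 at ZT13, again without overlap (log2 change 2.08 ± 0.25, adjusted p = 4.02e-05).

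Of the HSP90 genes, Hsp90aa1, the stress-inducible form, had 170, 103 and 101 at ZT9 and 423, 531 and 365 at ZT13. Its livers did not overlap and its log2 change was 1.83 ± 0.18 (adjusted p = 5.31e-06). The constitutive form Hsp90ab1 rose by 0.77 ± 0.12 on the log2 scale. Fkbp4, a co-chaperone of steroid receptors, had 119, 108 and 109 at ZT9 and 236, 223 and 206 at ZT13, a narrow spread with an adjusted p of 7.48e-07. Bag3 had 17.5, 15.9 and 24.3 at ZT9 and 75.5, 77 and 52.1 at ZT13 (log2 change 1.77 ± 0.17, adjusted p = 4.26e-06). The DNAJ proteins Dnajb1, Dnaja1 and Dnajb4 rose by 1.41, 1.04 and 0.72, and Dnajb1 went from 16.6 ± 1.77 to 46 ± 8.1. Of the mitochondrial chaperonin pair, Hspe1 rose by 0.33 and Hspd1, with a log2 change of 0.22, was not called (adjusted p = 0.0668).

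The heat shock element is made of inverted units of GAA. A run of 3 units (GAA, TTC and GAA with 2 bases of any kind between them, either strand) was in the 250 bases before the start of 2 of the 20 members of the list with a RefSeq promoter, Hspd1 and Hspe1, which share 1 promoter between them, against 0.466% of all promoters. Counted per gene, that run was in 0.455% of the tested genes with a promoter and 0.782% of those that rose. The shorter TTCNNGAA was in 4 of 20, Dnajb4, Hspd1, Hspe1 and Hsph1, against 7.17% of all promoters. Per gene it was in 7.07% of the tested genes with a promoter and 7.2% of those that rose. The runs overlap, since the longer contains the shorter. Windows of 60 bases are given for Hspe1 (chr1:55088040-55088099, plus strand, where 2 overlapping runs of 3 units are capitalised as 1 stretch) and Hsph1 (chr5:149636336-149636395, minus strand), to set a member with the longer element beside a strongly changed member with the shorter, in capitals.
Hspe1: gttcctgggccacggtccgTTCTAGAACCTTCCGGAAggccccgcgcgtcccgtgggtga
Hsph1: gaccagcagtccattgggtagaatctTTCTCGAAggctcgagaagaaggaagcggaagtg
The log2 change was 0.33 for Hspe1, with the longer element, and 2.08 for Hsph1. Most members with a promoter that rose had neither run in this window. Only exact matches in these 250 bases were searched, and whether a match bears on a change was not tested.

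**Figure D3:**
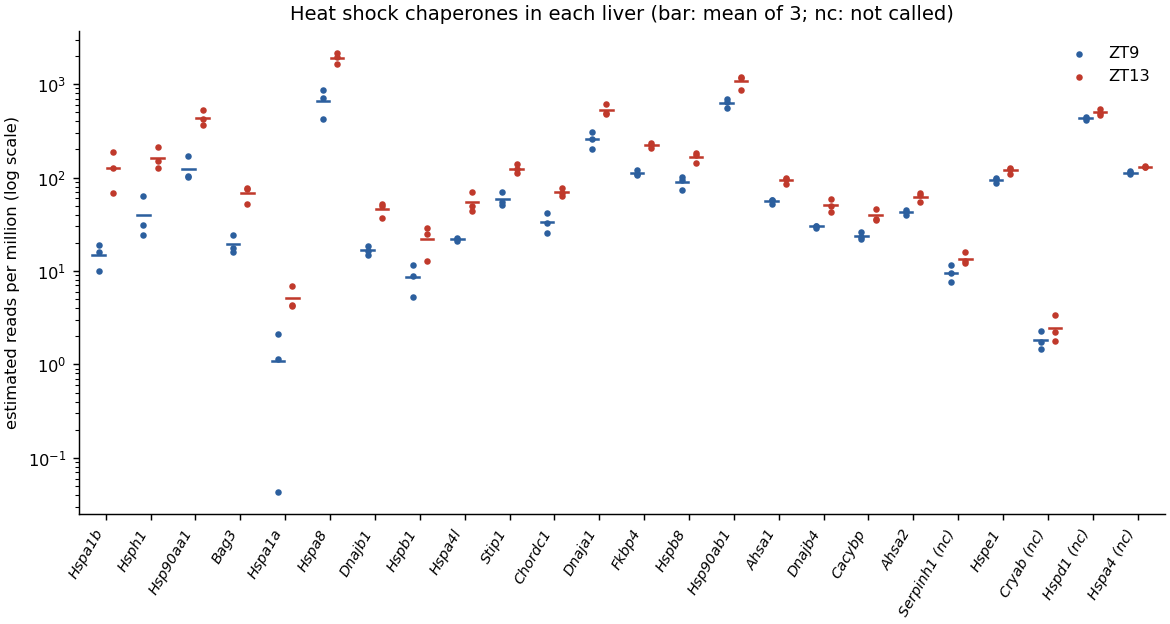
Estimated reads per 1000000 (vertical axis, log scale) of the 24 heat shock chaperones in the 3 ZT9 livers (blue) and the 3 ZT13 livers (red), ordered by log2 change, with bars at the means. Hspa1b at the left has the widest gap, the gap narrows to the right, and the 4 genes marked nc were not called.

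Chaperones of the endoplasmic reticulum were called in part. Of 25 measured genes of folding in that compartment and of the unfolded protein response, 9 rose and 1 fell (40% called, median log2 change 0.29). Between 8 and 11 members were called under the alternatives, and 7 rose with an offset of 0.1 or 5. Hspa5, the HSP70 of the compartment, had 835, 643 and 698 at ZT9 and 1275, 1418 and 1201 at ZT13, without overlap (log2 change 0.84 ± 0.15, adjusted p = 0.00147). Creld2, a folding factor, had 44.4, 18.8 and 21.8 at ZT9 and 77.5, 89.7 and 70.5 at ZT13 (log2 change 1.55 ± 0.27). Manf, Hyou1, Syvn1, Edem1, Herpud1 and Dnajb11 rose too, by 0.85, 0.78, 0.96, 0.44, 0.47 and 0.33. The lectin chaperones Calr and Canx had log2 changes of 0.01 and 0.02 and were not called, nor were the disulfide isomerases Pdia6, Pdia3, P4hb and Pdia4, with -0.08, 0.10, 0.20 and 0.36 (adjusted p = 0.0798 for Pdia4). Ddit3, which encodes the stress factor CHOP, rose from 5.96 ± 0.906 to 12.7 ± 1.01, whereas Trib3, a pseudokinase known as its target, had 6.77, 9.92 and 7.07 at ZT9 and 1.6, 2.63 and 1.78 at ZT13 and fell (log2 change -1.57 ± 0.28, adjusted p = 0.00129).

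Of 16 measured genes of glucose uptake, glycolysis and glycogen, 5 rose and none fell (31.2%, median log2 change 0.25). Ppp1r3b, which targets protein phosphatase 1 to glycogen, had 174, 111 and 281 at ZT9 and 539, 577 and 726 at ZT13 (log2 change 1.79 ± 0.24, adjusted p = 0.000129). Pfkfb1, which makes and removes fructose 2,6-bisphosphate, rose by 0.98, and Pygl and Gbe1, glycogen phosphorylase and branching enzyme, by 0.39 and 0.30. With each liver scaled to the same total 3 rose and 1 fell. The list had 3 calls without the second or the third ZT9 liver, without the first or the third ZT13 liver, with only the 6 livers in the fit or without the trend. Gys2, the liver glycogen synthase, and Slc2a2, the glucose transporter GLUT2, had log2 changes of -0.25 and -0.19 and were not called.

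Of 16 measured genes of gluconeogenesis and fasting, 1 rose and 4 fell (31.2%, median log2 change -0.18). Pck1 (ENSMUSG00000027513, chromosome 2, 173153048 to 173159273), the PEP carboxykinase of gluconeogenesis, had 1453, 2172 and 1143 at ZT9 and 438, 261 and 376 at ZT13. All ZT9 livers were above all ZT13 livers, with a log2 change of -2.13 ± 0.39 (adjusted p = 0.00162). Irs2, an insulin receptor substrate that is high in fasting, fell from 12.2 ± 3.8 to 5.09 ± 1.24 (adjusted p = 0.0136). It was not called without the second ZT9 liver (adjusted p = 0.0785) or the third ZT13 liver (adjusted p = 0.0624). Igfbp1, an insulin-repressed IGF binding protein, had overlapping livers, with 5.58, 30 and 15.8 at ZT9 and 1.52, 1.33 and 7.86 at ZT13. It was called with an adjusted p of 0.0412 and lost the call in 10 of 21 alternatives, with an adjusted p of up to 0.189, reached without the second ZT9 liver. G6pc, glucose 6-phosphatase, had 147, 121 and 456 at ZT9 and 116, 88.9 and 156 at ZT13, which overlap, and was not called (adjusted p = 0.386). Foxo3 fell by 0.35, and Slc37a4, the glucose 6-phosphate transporter, rose by 0.53. Calls of the list numbered 2 without the second ZT9 liver, 3, 2 and 2 without the first, second or the third ZT13 liver, and 2 with only the 6 livers in the fit or without the trend, and in each of these cases none was a rise.

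Genes of fatty acid synthesis had a median log2 change of 0.47, with 5 of 19 called, all of which rose (26.3%). Pnpla3, a lipid droplet protein induced by SREBP1c, had 6.38, 2.88 and 1.73 at ZT9 and 31.8, 12.2 and 51.2 at ZT13. The groups did not overlap but the ZT13 livers were spread widely, and the log2 change was 2.72 ± 0.68 (adjusted p = 0.0152). Its adjusted p was 0.0531, 0.065, 0.0577 and 0.0682 without the second ZT9, the third ZT9, the first ZT13 or the third ZT13 liver. Thrsp, a lipogenic cofactor, had 826, 391 and 940 at ZT9 and 1736, 1539 and 2806 at ZT13 (log2 change 1.54 ± 0.35, adjusted p = 0.00827, and 0.0557 without the second ZT9 liver). Fasn, fatty acid synthase, had 681, 578 and 1016 at ZT9 and 1036, 1447 and 2379 at ZT13 (adjusted p = 0.014). Without the second ZT9 liver it was 0.0777 and without the third ZT13 liver 0.0733. Srebf1, the SREBP1 gene, had 314, 376 and 628 at ZT9 and 707, 593 and 662 at ZT13, which overlap, and its adjusted p of 0.0251 rose to between 0.0623 and 0.126 without the first or second ZT9 liver or the first or the third ZT13 liver. For the list, 1 member was called without the second ZT9 liver, and 2 without the third ZT13 liver or with only the 6 livers in the fit. Scd1, Acly and Acaca had log2 changes of 0.48, 0.52 and 0.16 and were not called. Among lipid droplet genes outside the list, chosen after their values were seen, Plin5 had 22.1, 19.2 and 22 at ZT9 and 71, 57 and 57.4 at ZT13 (adjusted p = 6.24e-06). G0s2, an inhibitor of the lipase ATGL, had 28.8, 18.7 and 37.1 at ZT9 and 157, 69.8 and 81.7 at ZT13 (log2 change 1.79 ± 0.43, adjusted p = 0.0108), and was not called without the second ZT9 liver (0.0612) or the first ZT13 liver (0.068).

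Of 25 measured genes of cholesterol synthesis and uptake 3 rose and 1 fell (16%, beside 11.1% of all genes, median log2 change -0.05). The direction of the median turned with single livers, to 0.23 without the second ZT9 liver and 0.14 without the first ZT13 liver, and it was -0.22 without the first ZT9 liver. Without the third ZT9 liver 1 rose and 2 fell, without the first ZT9 liver 2 rose and 2 fell, and 1 gene was called, a fall, without the third ZT13 liver or with only the 6 livers in the fit. Ebp, a sterol isomerase, rose by 0.37, with an adjusted p of 0.0195 that was 0.105 without the third ZT9 liver and 0.0614 without the third ZT13 liver. Stard4, a cholesterol carrier, had 203, 199 and 164 at ZT9 and 104, 136 and 145 at ZT13 and fell (log2 change -0.56 ± 0.12, adjusted p = 0.00586).

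Of 18 measured genes of bile acid synthesis and transport, 2 rose and 5 fell (38.9%, median log2 change -0.26). Abcg8, a subunit of the canalicular sterol exporter, had 104, 128 and 108 at ZT9 and 56.8, 56.7 and 59 at ZT13, with no overlap (log2 change -0.96 ± 0.13, adjusted p = 0.000102). Its partner Abcg5 fell by 0.56, and the bile salt export pump Abcb11 by 0.31, the uptake carrier Slco1a1 by 0.42 and the synthetic enzyme Hsd3b7 by 0.33. Akr1d1, a steroid reductase of the pathway, rose from 155 ± 11.3 to 240 ± 44.8 (adjusted p = 0.0118), but its adjusted p was 0.0575 without the second ZT9 liver and 0.059 without the second ZT13 liver. Cyp8b1, the sterol 12α-hydroxylase, had overlapping livers, with 216, 127 and 135 at ZT9 and 208, 294 and 223 at ZT13. Its adjusted p was 0.0429, was above 0.05 in 10 of 21 alternatives and reached 0.184 without the second ZT9 liver. Cyp7a1, the rate-limiting enzyme of bile acid synthesis, had 121, 69 and 129 at ZT9 and 261, 141 and 105 at ZT13 and was not called (adjusted p = 0.39). Of the list, 2 members were called without the second ZT9 liver, 3 without the first ZT13 liver and 4 with only the 6 livers in the fit, and no member rose without the second ZT9 or the second ZT13 liver.

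Fatty acid oxidation and ketogenesis showed few calls, with 2 risen and 1 fallen of 24 (12.5%, near the 11.1% of all genes, median log2 change 0.15). Cpt2, the inner carnitine palmitoyltransferase, rose by 0.40 ± 0.08 (adjusted p = 0.00302). Bdh1, which makes 3-hydroxybutyrate, had 209, 221 and 211 at ZT9 and 180, 162 and 168 at ZT13, and fell (adjusted p = 0.00237). Acot1, a cytosolic thioesterase with close paralogs among which reads may be split, had 35.4, 11.9 and 9.28 at ZT9 and 43.2, 43.1 and 34.5 at ZT13. These overlap at 1 liver of each time, and its adjusted p of 0.0258 was between 0.0681 and 0.131 without the second or the third ZT9 liver or the first or second ZT13 liver. Cpt1a and Ppara, the entry enzyme and the nuclear receptor of the pathway, had log2 changes of -0.31 and -0.41, livers that did not overlap, and adjusted p of 0.103 and 0.189. Without the first ZT9 liver 5 members of the list were called.

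Glucocorticoid-induced genes include 4 that rose and 1 that fell of 17 (29.4%, median log2 change 0.24). Tsc22d3, which encodes the mediator GILZ, had 29.4, 33.9 and 56.2 at ZT9 and 72.6, 94.9 and 119 at ZT13 (log2 change 1.27 ± 0.26, adjusted p = 0.0041). Zbtb16 had 7.25, 10.3 and 19 at ZT9 and 33.7, 28.6 and 37.4 at ZT13. Fkbp5, an inhibitor of the receptor, had 72.2, 30.3 and 34.8 at ZT9 and 210, 49.7 and 96.5 at ZT13, which overlap (adjusted p = 0.0435). Klf9, another known target, went the other way, from 91.6, 71.9 and 74.1 at ZT9 to 38.4, 33.1 and 44.9 at ZT13 (adjusted p = 0.000166). The call of Zbtb16 (adjusted p = 0.0214) was lost without the first or second ZT9 liver (0.0948 and 0.0733) and without the first or the third ZT13 liver (0.066 and 0.0648). For the list, 3 members were called without the second ZT9 liver, and likewise without the first or the third ZT13 liver or with robust moderation.

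Cdkn1a, the cyclin-dependent kinase inhibitor p21, is in the glucocorticoid list and in the list of the cell cycle and the p53 response. It had 0.383, 0.885 and 0.234 at ZT9, the lowest time of the day, and 13.9, 2.7 and 8.9 at ZT13. The ZT13 livers differed widely but were all above ZT9, with a log2 change of 2.47 ± 0.37 (adjusted p = 0.000317). The other changed members of the cell cycle list fell. Ccne1, cyclin E1, had 4.04, 3.31 and 3.23 at ZT9 and 0.943, 1.4 and 0.999 at ZT13 (adjusted p = 0.00121). Sesn1, a stress-induced regulator of mTOR signalling, fell by 0.57. Trp53inp1, a p53-induced protein, fell from 44.4 ± 5.84 to 26.8 ± 8.79, with an adjusted p of 0.0363 that was 0.132, 0.0825 and 0.201 without the second ZT9, the third ZT9 or first ZT13 liver. In all 1 rose and 3 fell of 20 (20%, median log2 change -0.13), and the proliferation genes Mki67, Top2a, Cdk1 and Ccna2 had means below 3 at both times and were not called.

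Of 16 immediate early genes 1 rose and 1 fell (12.5%, near the 11.1% of all genes). The median log2 change was -0.02, and 0.03 and 0.01 without the second or the third ZT9 liver. Junb had 17.7, 19.9 and 20.4 at ZT9 and 6.52, 10.4 and 7.08 at ZT13, all lower (log2 change -1.20 ± 0.27, adjusted p = 0.00805). Jun had 11.2, 7.53 and 10.8 at ZT9 and 22.8, 17.9 and 17 at ZT13, all higher (adjusted p = 0.0286, but 0.13, 0.121 and 0.0513 without the second ZT9 liver and the first and second ZT13 livers). In each of these 3 cases the list had 1 call. Myc went from 13.2, 3.49 and 7.64 to 19.6, 47.5 and 11.2, which overlap.

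Tubulin and actin genes that changed all rose. Tubb2a (ENSMUSG00000058672, chromosome 13, 34074274 to 34078007), a β-tubulin, had 14.9, 15.4 and 13.2 at ZT9 and 70.4, 57.9 and 59.4 at ZT13. The spread within each time was small beside the gap, and the log2 change was 2.03 ± 0.15 (adjusted p = 1.69e-07). Tuba1c rose from 54.6 ± 8.2 to 122 ± 5.45, while its close relatives Tuba1a and Tuba1b, between which reads may be split, had log2 changes of -0.10 and 0.12 and were not called. With Tuba4a and Tubg1, 4 of 10 tubulins rose and none fell (40%, median log2 change 0.19), and 2 without the first ZT13 liver, when Tubg1 had an adjusted p of 0.0674. Actg1 and Actb, the cytoplasmic actins, rose from 84.9 ± 14.3 to 179 ± 40 and from 246 ± 39.4 to 402 ± 80.1, with adjusted p of 0.00147 and 0.00414. They were the only calls among 19 genes of the SRF and actin list (10.5%, near the 11.1% of all genes). The median log2 change of that list was 0.08, and -0.03 without the first ZT13 liver. Srf, Vcl, Tagln and Acta2 were not called.

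Ribosome assembly factors rose where they changed. Of 26 genes of ribosome biogenesis and RNA polymerase I, 9 rose and none fell (34.6%, median log2 change 0.23). Nop16 had 17.6, 18.1 and 15.3 at ZT9 and 34.1, 32.4 and 31.8 at ZT13 (log2 change 0.91 ± 0.09, adjusted p = 1.06e-05). Nolc1, a nucleolar phosphoprotein, had 19.4, 15 and 24.5 at ZT9 and 43.9, 38.4 and 38.3 at ZT13. Rrp12 rose by 0.77, and Nop2, Nop58, Nop56, Polr1b, Polr1a and Wdr12 by 0.72, 0.64, 0.57, 0.48, 0.44 and 0.34. Ncl, Npm1 and Fbl, abundant nucleolar proteins, had log2 changes between -0.13 and 0.17 and were not called. The count was 5 without the second ZT9 liver or with only the 6 livers in the fit, and 4 without the first ZT13 liver. The polyamine synthesis enzymes Odc1 and Srm rose by 0.66 and 0.64. They were the 2 calls among 12 genes of polyamine metabolism (16.7%, beside 11.1% of all genes). The median log2 change of these 12 was 0.01, -0.05 with each liver scaled to the same total and -0.02 without the first ZT13 liver. Srm had an adjusted p of 0.0582 without the first ZT13 liver.

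Of 81 cytosolic ribosomal protein genes 13 rose and none fell (16%, beside 11.1% of all genes). Of the 81, 78 had a higher mean at ZT13, and log2 changes ran from -1.02, in a member not called, to 0.54. The median log2 change was 0.21, beside -0.003 over all genes. Without the third ZT13 liver 12 rose and 1 fell. The count moved with single livers. It was 1 without the first ZT13 liver, 3 and 5 without the first and second ZT9 livers, 5 without the third, 20 without the first ZT21 liver, 4 with each liver scaled to the same total or without the trend, and 2 with only the 6 livers in the fit. The member with the lowest adjusted p was Rpl7l1, a ribosomal protein-like gene of ribosome assembly, with 48.3, 51.6 and 53.3 at ZT9 and 78.7, 69.2 and 76.6 at ZT13 (log2 change 0.54 ± 0.08, adjusted p = 0.000176). Rpl18 had 121, 128 and 125 at ZT9 and 186, 150 and 146 at ZT13, with the first ZT13 liver the highest, and its adjusted p went from 0.0173 to 0.0973 without that liver and 0.0541 without the first ZT9 liver. Many ribosomal protein genes have processed pseudogenes with which reads may be shared.

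Of 78 measured subunits of oxidative phosphorylation, 15 rose and 1 fell (20.5%, median log2 change 0.19), and 73 had a higher mean at ZT13. The 1 that fell, Atp5sl, is an assembly factor that the symbol pattern of the list took in, with 33.6, 35.8 and 34 at ZT9 and 27.7, 25.9 and 22.7 at ZT13. Its adjusted p was 0.0112, and 0.0565 without the third ZT13 liver. Ndufa12, of complex I, had 30.4, 33.2 and 31.1 at ZT9 and 41.7, 45.3 and 39 at ZT13 (log2 change 0.40 ± 0.09, adjusted p = 0.00973). Calls in the list numbered 8, 7 and 8 without the first, second and the third ZT9 liver, 6 without the first ZT13 liver, 8 with each liver scaled to the same total or without the trend, and 4 with only the 6 livers in the fit. Of 38 proteasome subunits 1, Psma5, fell (2.63%, median log2 change 0.03, -0.03 with equal totals and -0.02 without the third ZT9 liver), with an adjusted p of 0.0267 that was above 0.05 without the first ZT9 (0.069), second ZT9 (0.122), first ZT13 (0.08), second ZT13 (0.0601) or the third ZT13 liver (0.0517).

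Enzymes of amino acid breakdown and the urea cycle rose where they changed, 7 of 25 with none fallen (28%, median log2 change 0.27). Asl, argininosuccinate lyase, had 406, 310 and 380 at ZT9 and 756, 585 and 571 at ZT13, without overlap (log2 change 0.80 ± 0.13, adjusted p = 0.000471). Ahcy and Mat1a, which turn over S-adenosylhomocysteine and make S-adenosylmethionine, rose from 1660 ± 153 to 2585 ± 275 and from 1711 ± 138 to 2586 ± 225. Ass1, Gpt, Hpd and Nags rose by 0.45, 0.47, 0.44 and 0.37. Cps1, Otc and Arg1, the urea cycle enzymes that complete the pathway, had log2 changes of 0.21, -0.10 and 0.27 and were not called. Without the second ZT9 liver 4 members were called and without the first ZT13 liver 3, when Mat1a had an adjusted p of 0.0559.

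Among genes of drug and steroid metabolism, 5 rose and 1 fell of 24 (25%, median log2 change 0.37). Cyp2b10 (ENSMUSG00000030483, chromosome 7, 25897620 to 25926624), a cytochrome P450 induced through the nuclear receptor CAR, had 6.17, 4.33 and 5.86 at ZT9 and 78.8, 55.8 and 73.5 at ZT13. The ratio of the means was 12.7, below the 17 of Cdkn1a, whose ZT9 livers were near 0. On the log2(value + 1) scale the change of Cyp2b10 was the largest of the named genes, 3.44 ± 0.16 (adjusted p = 4.35e-10). Reads may be shared with other Cyp2b genes. Nr1i3, which encodes CAR, had a log2 change of -0.17 and was not called. Gstt1, a glutathione transferase, had 133, 106 and 97.6 at ZT9 and 210, 198 and 185 at ZT13 (adjusted p = 0.000512). Sult1a1 and Sult1d1, sulfotransferases, rose by 0.69 and 0.61 and Gstm1 by 0.39, and the exporter Abcc2 fell by 0.60.

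Genes of heme and iron gave 5 rises and no fall of 21 (23.8%, median log2 change 0.36). Alad, the second enzyme of heme synthesis, had 88.6, 89.6 and 97 at ZT9 and 121, 128 and 116 at ZT13, and Cpox, a later one, rose by 0.39. Alas1, the rate-limiting first enzyme, had means of 441.6 and 873.2 and was not called (adjusted p = 0.325). Tfrc, the transferrin receptor, had 26, 19.5 and 31.4 at ZT9 and 33.1, 41.6 and 73.7 at ZT13, with the third ZT13 liver far above the others. Its adjusted p was 0.0204, and 0.108 and 0.0987 without the second ZT9 liver and the third ZT13 liver. Hfe2, the BMP co-receptor hemojuvelin, rose from 49.9 ± 6.62 to 71.6 ± 5.16. The list had 3 calls without the third ZT13 liver and 2 with only the 6 livers in the fit.

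Of 22 regulators of nutrient sensing by mTOR and AMPK, 5 fell and 2 rose (31.8%, median log2 change -0.07). Rictor, a subunit of mTOR complex 2, had 26.4, 28.5 and 27 at ZT9 and 16.4, 19.6 and 15.6 at ZT13 (log2 change -0.65 ± 0.11, adjusted p = 0.00132). Ulk1, the kinase that starts autophagy, Tsc1 and Deptor, both inhibitors of mTOR, and Sesn1 fell by 0.62, 0.53, 0.35 and 0.57. Ddit4, an inhibitor of mTOR that is induced by stress, rose from 2.56 ± 0.598 to 6.06 ± 1.15 (adjusted p = 0.00715). Eif4ebp3, a translation repressor, had 27.8, 25.4 and 28.3 at ZT9 and 139, 39.2 and 40.9 at ZT13, so that its mean rests on the first ZT13 liver. Its adjusted p was 0.049, 0.252 without that liver, and above 0.05 in 14 of 21 alternatives. These included leaving out any ZT9 liver (0.0939 to 0.13), any ZT1 liver (0.0591 to 0.0612), the third ZT5 liver (0.0575) or the first ZT21 liver (0.0571). The growth hormone and IGF1 list had a median log2 change of -0.06, and 0.12 without the third ZT13 liver. Of its 16 members 1 rose and 1 fell (12.5%, near the 11.1% of all genes). These were Igfals, with 105, 79.4 and 103 at ZT9 and 184, 122 and 128 at ZT13, and Igfbp1. Without the second ZT9 liver or the first ZT13 liver the list had no call, and Igfals had adjusted p of 0.0713 and 0.067. It had none either with only the 6 livers in the fit.

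Of 22 splicing regulators 3 rose and 3 fell (27.3%, median log2 change 0.02, and -0.04 with equal totals). Without the first ZT9, second ZT9 or the third ZT13 liver 1 rose and 3 fell, and the median was -0.01 and -0.02 without the second or the third ZT9 liver. Srsf5, an SR protein, had 251, 244 and 256 at ZT9 and 138, 187 and 158 at ZT13. Srpk2, a kinase of SR proteins, fell from 22.5 ± 1.33 to 14 ± 1.3, and Hnrnpdl fell by 0.50. Tra2b rose from 26 ± 2.08 to 38 ± 0.351, and Srsf3 and Srsf2 by 0.47 and 0.35. The cold-induced RNA binding proteins Cirbp and Rbm3 were not both called. Cirbp, with 14.9, 17.6 and 16.1 at ZT9 and 7.17, 6.67 and 8.38 at ZT13, fell (log2 change -1.03 ± 0.16, adjusted p = 0.000337). Rbm3 had 40, 47.6 and 60.1 at ZT9 and 47.4, 55.5 and 52.4 at ZT13, which overlap, and its log2 change of 0.09 ± 0.17 was -0.05 without the first ZT9 liver.

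**Figure D4:**
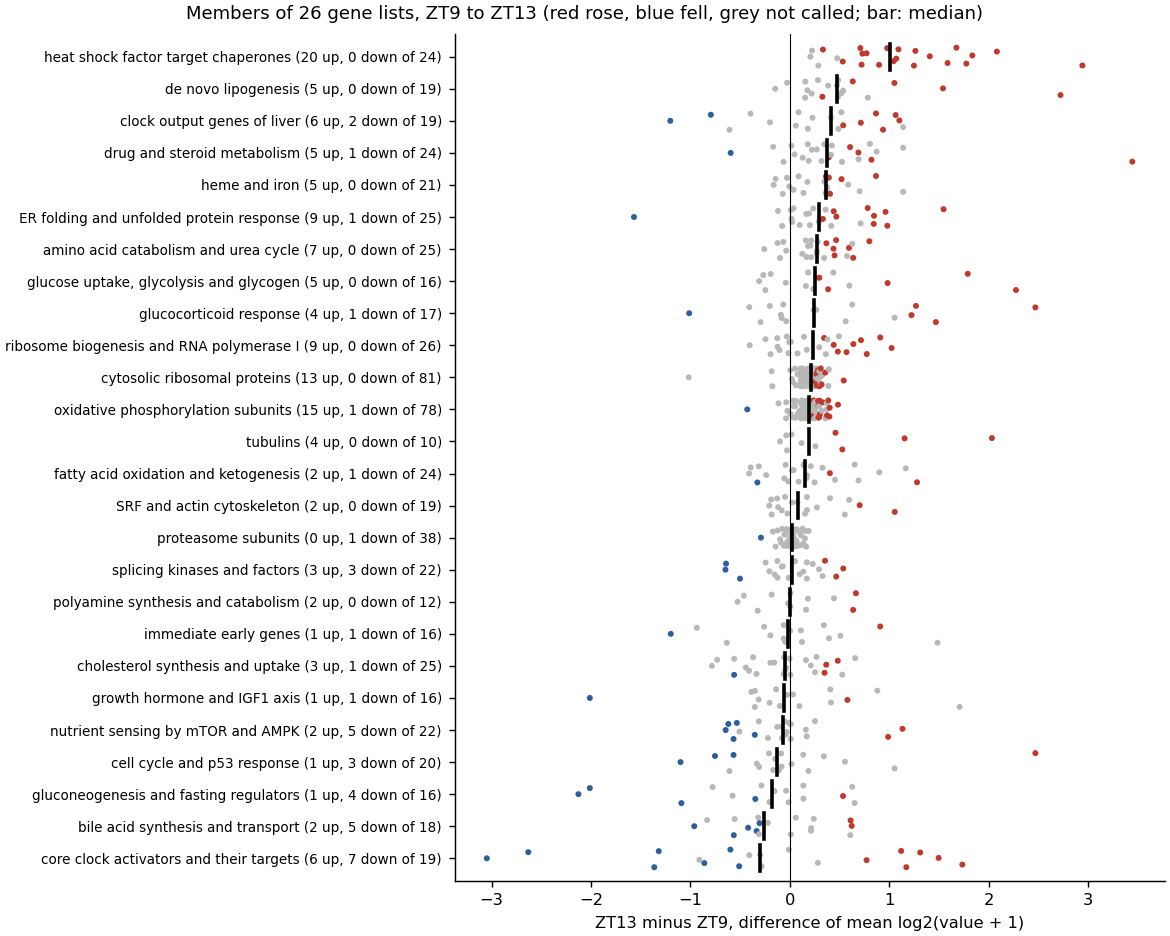
Log2 change from ZT9 to ZT13 (horizontal axis) of each measured member of the 26 gene lists, 1 row per list ordered by its median (black bar), with genes that rose in red, genes that fell in blue and genes not called in grey. The heat shock chaperones have the highest median, 1.01, with no blue point, and the core clock the lowest, -0.30, with points at both ends.

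Several of the steepest falls lay outside the lists. Rgs16, a regulator of G protein signalling, had 66.7, 38.1 and 128 at ZT9 and 19.5, 9.41 and 7.66 at ZT13, a wide spread at ZT9 but no overlap (log2 change -2.51 ± 0.54, adjusted p = 0.00535). Bmf, a BH3-only protein of apoptosis, had 24.3 ± 6.8 at ZT9 and 4.1 ± 1.3 at ZT13 (log2 change -2.31 ± 0.25, adjusted p = 1.74e-05). Klhl24, a ubiquitin ligase adaptor, had 88.1, 91.3 and 76.5 at ZT9 and 20.3, 26.6 and 24.1 at ZT13. Each ZT9 value of these genes was above each ZT13 value. Tcp11l2 fell by 1.95, Crebrf, a regulator of CREB3 proteins, by 1.66, the F-box protein Fbxo21 by 1.61, the mitochondrial exchanger Slc8b1 by 1.60 and the lectin Clec2h by 1.59, with adjusted p of 2.96e-05, 1.28e-05, 2.05e-05, 0.000175 and 0.00578. B3galt1, a galactosyltransferase, had 35.3, 40.3 and 57 at ZT9 and 30.8, 5.24 and 14.2 at ZT13, with 1 ZT13 liver close to ZT9. Its adjusted p of 0.022 was 0.0554, 0.0852 and 0.105 without the second ZT9, the third ZT9 or second ZT13 liver. Of the rises outside the lists, Rcan1, an inhibitor of calcineurin, had 27.1, 9.64 and 19.7 at ZT9 and 90.3, 78.3 and 51.1 at ZT13 (log2 change 1.98 ± 0.29, adjusted p = 0.000244).

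The opposite transition, from dark at ZT21 to light at ZT1, was measured in 6 other livers, so that no liver enters the means of both comparisons. The tests are not independent, because all 18 livers share the estimate of the spread. The transition from ZT21 to ZT1 changed 29 genes (0.201% of those tested), 13 up and 16 down, against 1605 between ZT9 and ZT13. At an unadjusted p below 0.05 the counts were 1339 (9.27%) and 3652 (25.3%). The change from ZT9 to ZT13 differed from the change from ZT21 to ZT1 for 1071 genes (7.41%) in the test of the difference itself, among them 857 of the 1605 (53.4%). The 1605 were picked by a change that is part of the difference, so the share of 53.4% is not independent of that choice. For the heat shock list 19 of 24 members differed, none was called from ZT21 to ZT1, and the median log2 change there was -0.04 beside 1.01. Single members were not flat from ZT21 to ZT1. Hspa1b had a log2 change of 1.41 ± 0.30 (adjusted p = 0.0666), Dnajb1 one of 0.42 and Hsp90aa1 one of -0.47. For the core clock 8 of 19 members were called from ZT21 to ZT1 and 10 differed. The count of 29 fell to 10 and 11 without the second or the first ZT1 liver and to 13 and 14 without the third or the first ZT21 liver. It was between 24 and 35 with a ZT9 or ZT13 liver left out, since these livers enter through the shared spread.

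Of the 18 genes called in both transitions, 4 moved in the same direction and 14 (0.0969% of those tested) in opposite directions. Nr1d1, Abcg8, Abca8b, Gnpnat1, Hsd3b7, Bdh1 and 1500017E21Rik fell from ZT9 to ZT13 and rose from ZT21 to ZT1. Genes that did the reverse included Cyp2b10, Cry1, Fmo5, Asl, Gm16573 and 1600002H07Rik. Nr1d1 rose by 2.20 ± 0.26 from ZT21 to ZT1 (adjusted p = 0.000374), and the test of the difference gave an adjusted p of 8.7e-07. Cyp2b10 fell by 1.28 ± 0.16 from ZT21 to ZT1, with an adjusted p of 7.41e-10 for the difference. Abca8b, an ABC transporter, had 75.3, 69 and 71.6 at ZT9 and 40.7, 42.5 and 39.6 at ZT13, and then rose by 0.42 from ZT21 to ZT1. The call of 1500017E21Rik from ZT9 to ZT13 (adjusted p = 0.0305) was lost without the first or second ZT9 liver (0.0699 and 0.107) or the first or second ZT13 liver (0.165 and 0.0723). Per3, Tef, Nfil3 and Banp moved in the same direction in both, down for Per3 and Tef and up for Nfil3 and Banp. Per1 fell by 2.57 from ZT21 to ZT1 and was not called from ZT9 to ZT13, and the 2 changes differed (adjusted p = 0.00648).

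**Figure D5:**
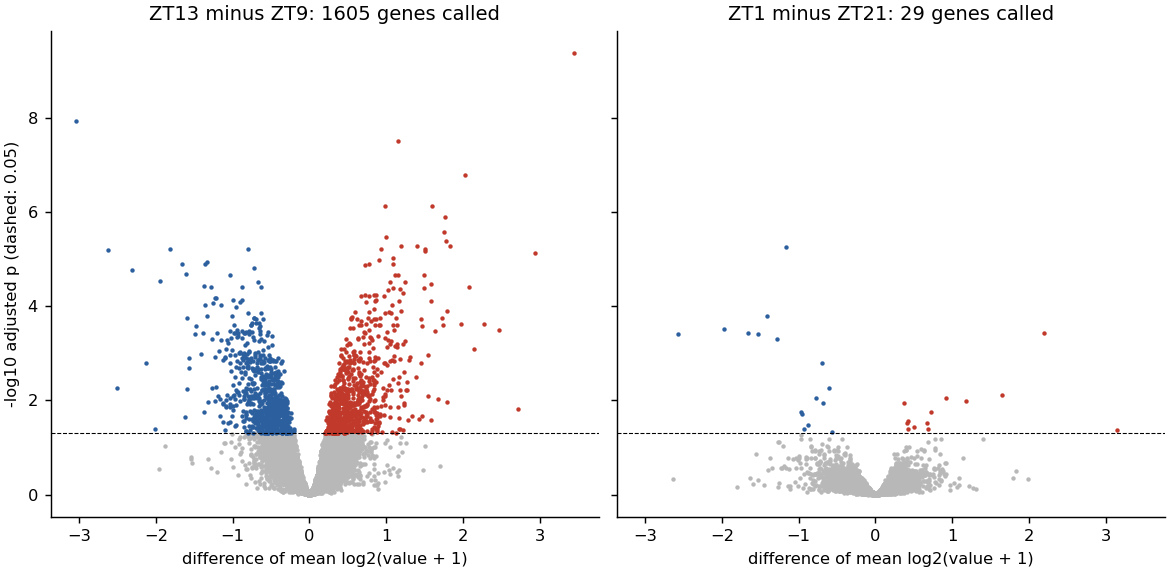
Size of change (horizontal axes, difference of mean log2(value + 1)) against -log10 of the adjusted p (vertical axes) for all genes from ZT9 to ZT13 (left) and from ZT21 to ZT1 (right), with the threshold of 0.05 dashed. The left panel holds 1605 genes above the line and the right panel 29, on the same axes.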

How the data were processed

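RNA of 18 mouse livers, 3 at each of 6 zeitgeber times, was sequenced as polyadenylated RNA with a NEBNext Ultra kit, whose strand setting is not given in the sources used here, so a gene and its antisense partner cannot be told apart. Per the labels and the study's methods, the authors demultiplexed reads with CASAVA 1.8.2, removed adapters with Cutadapt, and assigned reads to Ensembl genes of GRCm38 with RSEM 1.2.20, which gives estimated counts. The deposited values are a signal that the authors normalized with limma, the estimated count plus 0.5 reads per 1000000 of an effective library size. The lowest value of a liver stands for 0 reads. Values were multiples of 0.01 reads and mostly not whole, so no count test was used. A table of TPM values that the labels name was not used here.

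Of 14451 genes, 2 at the lowest value in all livers were left out, and 508 of the rest were at it in at least 1 of the 6 livers compared. Replicate numbers only name livers, in the order of the labels. limma 3.58.1 in R 4.3.3 tested ZT13 against ZT9, ZT1 against ZT21, and the difference of these changes, each two-sided, on log2(value + 1) with a trend in 1 fit of 18 livers, with Benjamini–Hochberg adjustment over 14449 genes and a threshold of 0.05. On simulated data of that many genes for ZT13 against ZT9, the fit recovered 7, 33, 50 and 49 of 50 genes changed by 1.25, 1.5, 2 and 3-fold, with 3 flat genes called. The changed genes were drawn only from those of higher level, with normal noise, so recovery of genes with low values was not tested. Standard errors had a median of 0.159. Tables were made with Python 3.11.15 and pandas 2.3.3, coordinates are from GENCODE M21 (14405 genes matched), and promoters are from RefSeq (10326 of 14436 tested symbols matched).

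The comparison, the 26 gene lists and the marker lists were chosen with earlier results of these data known. Named genes were, by rule, the 12 largest rises and the 12 largest falls that were called, did not overlap and had a mean of at least 5 at the higher time, predicted gene models left out, up to 3 called genes per list, a fixed set of clock, chaperone and metabolic genes, and the 5 largest rises and falls among genes with opposite changes in the 2 transitions. Other genes come from the lists or are marked, and a few genes of the rule and the lists are not reported here. Alternatives changed the offset, filter, scaling, livers and moderation.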

Additional observations from a re-analysis of the deposited data

How the results depend on the processing

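The count of genes changed from ZT9 to ZT13 (1605) was between 1527 and 1664 with an offset of 0.1 or 5, a filter on the mean, either other scaling, robust moderation or the third ZT5 liver left out, 1334 without the trend, and 803 with the livers of the 2 times alone, where fewer livers set the spread. Leaving out 1 liver of either transition at a time gave 905 to 1605. The count from ZT21 to ZT1 (29) was 19 without the trend and 10 to 35 with a liver left out, and the count of differences was 723 to 1144 over all alternatives. Of the calls from ZT9 to ZT13, 97.1% were kept with an offset of 0.1, 83.7% with equal totals and 48% with the 6 livers alone. Of the named genes not called, 2 changed sign. Npas2 (-0.01) was 0.03, 0.01 and 0.01 without the second ZT9, first ZT13 or second ZT13 liver (-0.05 to 0.03 over all livers left out), and Rbm3 (0.09) was -0.05 without the first ZT9 liver (-0.05 to 0.24). The cause was not tested. No call of a named gene changed sign. Depth limits the 508 genes with no read in at least 1 of the 6 livers, and the smallest changes simulated were mostly not recovered. No paired analysis was possible because the labels give no replicate numbers and each time has its own animals.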

Other observations

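The genes below lay outside the lists and were chosen after their values were seen, so they stand for no group and have no count of other members beside them. Of the folliculin complex, which signals amino acid supply to the Rag GTPases, Flcn had 32.7, 41.7 and 31.6 estimated reads per 1000000 at ZT9 and 18.3, 13.3 and 12.3 at ZT13 (log2 change -1.23 ± 0.15, limma adjusted p = 6.8e-05). Its partners Fnip1 and Fnip2 fell by 1.00 and 0.85, from 61.7, 63.3 and 49.3 to 25.7, 31.6 and 28.3 and from 55.2, 62.1 and 42 to 23.6, 32.1 and 31.1. Rnf152, a ubiquitin ligase of the same Rag GTPases, fell by 1.49 ± 0.23 (adjusted p = 0.00039). For all 4 genes each ZT9 liver was above each ZT13 liver. Slc7a2, a cationic amino acid transporter of liver, had 398, 578 and 505 at ZT9 and 151, 190 and 228 at ZT13, and fell by 1.38.

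Among rises outside the lists, also chosen after their values were seen, Pnkd had 39.4, 44.2 and 40 at ZT9 and 95.4, 91.1 and 93.1 at ZT13 (log2 change 1.16 ± 0.07, adjusted p = 3.2e-08). Its spread beside its gap was the smallest of the rises in this paragraph. P4ha1, a collagen prolyl hydroxylase, had 8.9, 6.85 and 7.17 at ZT9 and 29, 33.6 and 23 at ZT13. Chka, choline kinase, had 13.9, 14.4 and 13.7 at ZT9 and 47.7, 39.4 and 50 at ZT13. The lipid droplet protein Plin4 rose by 1.74 on the log2 scale, from 4.89, 1.54 and 3.33 to 11.1, 13 and 13.3. Hsd3b5, a steroid dehydrogenase of male mouse liver, fell by 1.27, from 250, 279 and 248 to 140, 76.5 and 114.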
